A study of Homo sapiens with 18 samples.

Results

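Unstimulated THP-1 cells carrying a short hairpin RNA against NR4A2 (shNR4A2) were compared with unstimulated THP-1 cells carrying a non-targeting hairpin (shNT). The comparison rests on 6 of the 18 libraries of the series, 3 of shNR4A2 cells and 3 of shNT cells, and takes in every gene of the deposited tables. THP-1 is a line of human monocytic leukaemia cells. Each hairpin was delivered by lentivirus and is represented by 1 stable line kept under puromycin, so that an effect of the hairpin and a property of the line cannot be told apart. Both groups were held in buffered medium in a gas chamber and received no LPS. Sequencing was of RNA selected for its polyA tail, with paired reads of 150 bases. For reference, values are also given for shNT and shNR4A2 cells that received LPS at 2.5 μg/ml for 2 h and for unstimulated cells with a hairpin against NR4A3 (shNR4A3), with 3 libraries in each group.

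NR4A2, also called NURR1, is an orphan nuclear receptor that binds DNA as a monomer at an element named NBRE, and as a dimer with itself or with NR4A1 at another element. NR4A2 and its relatives NR4A1 and NR4A3 are induced early by many stimuli, LPS among them in monocytes and macrophages. NR4A2 is best known for its part in the development of midbrain dopamine neurons, and in myeloid cells it acts on inflammatory genes, partly by recruiting the CoREST corepressor.

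Between 17132910 and 23929138 reads were counted per library, 21068626, 17132910 and 19654525 in shNT cells and 23929138, 19004435 and 22046231 in shNR4A2 cells (replicates 1 to 3). Genes with at least 1 count numbered 26247, 26241 and 26590 in shNT libraries and 28930, 23968 and 28407 in shNR4A2 libraries, so that replicate 2 of shNR4A2 detected the fewest. Mitochondrial transcripts took between 1.31% and 1.96% of the reads in shNT cells and between 1.48% and 1.92% in shNR4A2 cells, ranges that overlap. Levels are given as TPM, a unit that sums to the same total in every library, computed from the counts and the deposited gene lengths. In these bulk libraries, fewer cells of a type and less RNA per cell cannot be told apart.

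The targeted transcript was lower in the line named for it. NR4A2 (ENSG00000153234, GRCh38 chr2:156324432-156342348) had 4.16, 2.83 and 4.08 TPM in shNT cells and 1.82, 1.63 and 2.40 TPM in shNR4A2 cells. All 3 shNR4A2 libraries lay below all 3 shNT libraries, with 233 counts in shNT and 139 in shNR4A2 libraries in total. An exact 2-sided permutation test gave p = 0.1, below which 3 against 3 libraries cannot go. By edgeR the change was -0.91 on the log2 scale (standard error 0.228, adjusted p = 0.0359). The call was lost without shNT replicate 1 or 3 or shNR4A2 replicate 1 or 2, at adjusted p up to 0.124, while a block on replicate number gave an adjusted p of 0.00452. Its relatives did not pass the limit by edgeR, at -0.14 (adjusted p = 0.728) for NR4A1 and 0.68 (adjusted p = 0.292) for NR4A3. In the libraries with LPS, NR4A2 stood at 62.7 ± 11.7 TPM in shNT and 21.2 ± 6.78 TPM in shNR4A2 cells (SD, n = 3). By edgeR that change was -1.52 on the log2 scale (adjusted p = 0.00265).

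Among the genes that differed, more rose than fell, above all among those that differed at least 2-fold. Of 15800 genes tested, 1019 had an adjusted p below 0.05 and were called (6.45%), 573 higher and 446 lower in shNR4A2 cells, and 344 of these also differed at least 2-fold (2.18%). The ranges of both groups were apart in 4064 of the tested genes (25.7%) and in 1017 of the 1019 called. Most differences were small, since 675 of the called genes changed under 2-fold and the median size of a called log2 fold change was 0.79. The genes called at 2-fold were also of low level, with a median of 3.25 TPM for those that rose and 4.61 TPM for those that fell, against 14.6 TPM over all genes tested. Of the 244 that rose at least 2-fold, 218 were protein coding and 54 had a mean under 1 TPM. Of the 100 that fell, 87 were protein coding and 7 had a mean under 1 TPM. Over all genes tested the median log2 fold change was -0.001.

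Libraries with the same replicate number deviated together, so the comparison was also fitted with that number as a block. The block raised the count of called genes to 3733 (23.6%), with 1910 higher and 1823 lower, and all 244 and all 100 genes called at 2-fold were called the same way there. With each library left out in turn, 154 of the 244 and 74 of the 100 kept their call every time. Without shNT replicate 3, 517 genes were called, and without shNT replicate 2, 612 genes were.

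**Figure D1:**
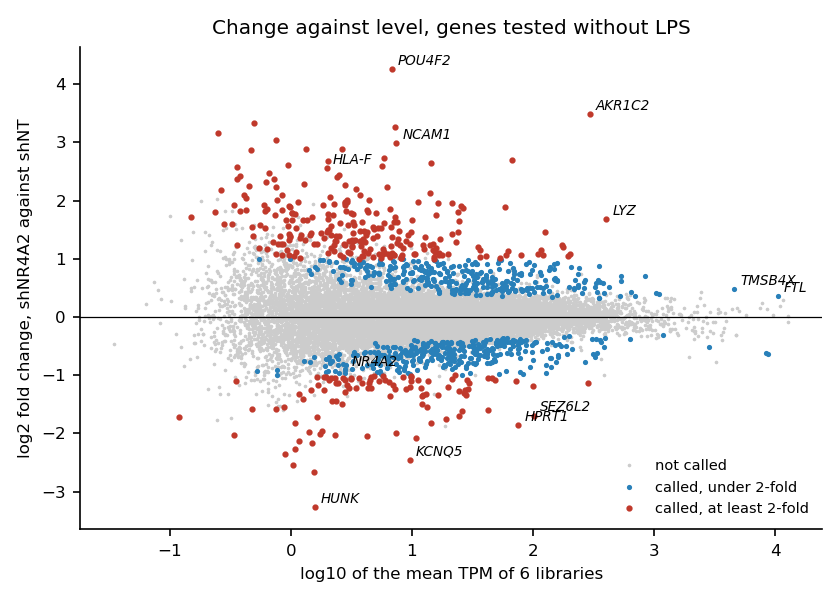
Log2 fold change of shNR4A2 against shNT cells without LPS (vertical axis) against log10 of the mean TPM of the 6 libraries (horizontal axis), with a point for each of the 15800 genes tested. The 344 genes called with a difference of 2-fold or more (red; smaller called changes in blue, others in grey) lie mostly at low levels, while abundant called genes such as TMSB4X and FTL changed less.

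The largest rise belonged to a gene of neurons. POU4F2 (BRN3B, a POU-domain transcription factor of retinal ganglion cells, chr4:146638893-146642474) had 0.335, 0.729 and 0.968 TPM in shNT cells and 8.61, 12.01 and 18.3 TPM in shNR4A2 cells. NCAM1, a neural cell adhesion molecule that also marks natural killer cells, had 1.79, 1.57 and 1.61 TPM in shNT cells and 10.4, 13.6 and 15.6 TPM in shNR4A2 cells. In both genes every shNR4A2 library lay far above every shNT library. SYN2, a synaptic vesicle protein, rose from 0.107 ± 0.0746 to 0.835 ± 0.0612 TPM (SD, n = 3), and the adhesion molecule L1CAM was called at a log2 fold change of 1.07, a call lost with 3 of the libraries left out. NCAM2, the most abundant gene of the neuronal list, fell from 90.6 ± 7.59 to 59.2 ± 7.23 TPM (SD, n = 3; log2 fold change -0.61, standard error 0.106, adjusted p = 0.00580). Of 36 neuronal genes listed, 17 were tested, and 4 rose, 1 fell and 12 were not called, with a median log2 fold change of 0.23, so that 29.4% were called beside 6.45% of all genes tested. The list was drawn up with earlier results of these data known, and the study had named POU4F2 and NCAM1 from these same libraries. SYN2, with 10 counts over the shNT and 85 over the shNR4A2 libraries, passed the filter only through the latter. The share is therefore not independent evidence of a direction. Of 16 genes listed as targets or partners of NR4A2 in dopamine neurons only 5 passed the filter on low counts, and of these NRP1, a co-receptor of semaphorins and VEGF, and LMX1B, a transcription factor, were called higher, the latter not without shNT replicate 1 or 3 (adjusted p up to 0.0733).

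A list was made of aldo-keto reductases, enzymes that reduce aldehydes and ketones, and of other genes known to respond to the transcription factor NRF2. Of 31 tested members 12 rose, none fell and 19 were not called, against 6.45% of all genes tested called in either direction. The median log2 fold change of the list was 0.51, and 23 were higher and none lower with the replicate block, which called 23.6% of all genes tested. AKR1C2, a reductase of steroid hormones (chr10:4987400-5018031, minus strand), had 53.4, 45.7 and 45.1 TPM in shNT cells and 580.4, 510.4 and 534.0 TPM in shNR4A2 cells. Its ratio of means was 11.3, and the spread within either group was small beside the gap between them. Its neighbours AKR1C1 and AKR1C3 rose less, from 5.75 ± 0.329 to 13.7 ± 1.86 TPM and from 5.40 ± 0.129 to 10.9 ± 2.24 TPM (SD, n = 3), at log2 fold changes of 1.25 (adjusted p = 0.000309) and 1.01 (adjusted p = 0.00546). Reads of these genes can be shared, since 39.5% of the stretches of 75 bases in the longest coding transcript of AKR1C2 also occur in AKR1C1 and 21.9% of those of AKR1C1 occur in AKR1C2. Only 6.87% of those of AKR1C3 occur in AKR1C2. A noncoding RNA within AKR1C2 on the opposite strand, AL391427.1, was called at 3.27, and whether its reads were told apart from those of AKR1C2 by strand is not given in the sources used here.

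The start regions of the 3 reductase genes are shown because genes of 1 cluster moved together to different extents. The 100 bases before the start of transcription, from RefSeq on GRCh38.p14 and read in the direction of each gene, are given in lower case with the letters of an inverted CCAAT box, a common element of promoters, in capitals.
AKR1C1, chr10:4963315-4963414, plus strand: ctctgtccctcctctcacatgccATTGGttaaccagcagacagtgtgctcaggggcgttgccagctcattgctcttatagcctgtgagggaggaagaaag
AKR1C2, chr10:5003858-5003957, minus strand: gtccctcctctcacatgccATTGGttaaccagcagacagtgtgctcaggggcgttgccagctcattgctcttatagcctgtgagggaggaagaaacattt
AKR1C3, chr10:5094314-5094413, plus strand: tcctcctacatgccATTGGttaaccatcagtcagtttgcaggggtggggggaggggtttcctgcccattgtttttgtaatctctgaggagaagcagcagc
Over the 250 bases before the start, AKR1C1 was 96.5% identical to AKR1C2 in a global alignment, and AKR1C3 was 70.2% identical at the start shown and 69.6% at another. AKR1C1 stood at 5.75 TPM and AKR1C2 at 48.1 TPM in shNT cells, and their log2 fold changes differed, but reads of the 2 genes can be shared. Each window shown lies inside its gene as annotated, so that other starts lie upstream. Which start these cells used was not tested. The letters CCAAT occur on either strand in 34.6% of the 35116 promoter windows of 300 bases in the table.

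Other members of the list rose less than AKR1C2. OSGIN1, a growth inhibitor induced by oxidative stress, had 12.9, 8.48 and 12.4 TPM in shNT cells and 31.4, 42.0 and 50.5 TPM in shNR4A2 cells. The quinone reductase NQO1 rose from 70.8 ± 11.2 to 132 ± 34.3 TPM and PIR, an iron-binding oxidoreductase, from 11.5 ± 1.23 to 21.4 ± 5.11 TPM (SD, n = 3). HMOX1, which degrades haem, had 172, 81.5 and 133 TPM against 243, 203 and 372 TPM, and its call (log2 fold change 1.08, adjusted p = 0.0218) was lost without shNT replicate 3 or shNR4A2 replicate 3 (adjusted p up to 0.0639) and by DESeq2 (adjusted p = 0.0518). With the replicate block the adjusted p of HMOX1 was 0.000157 by edgeR. PGD, TXNRD1, FTL and PRDX1 were called at log2 fold changes between 0.36 and 0.56, each of them lost with some libraries left out. Thioredoxin itself, TXN, stood at 450 ± 26.9 TPM in shNT and 449 ± 44.1 TPM in shNR4A2 cells (SD, n = 3; adjusted p = 0.992), and the glutamate-cysteine ligase gene GCLC was not called (adjusted p = 0.608).

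**Figure D2:**
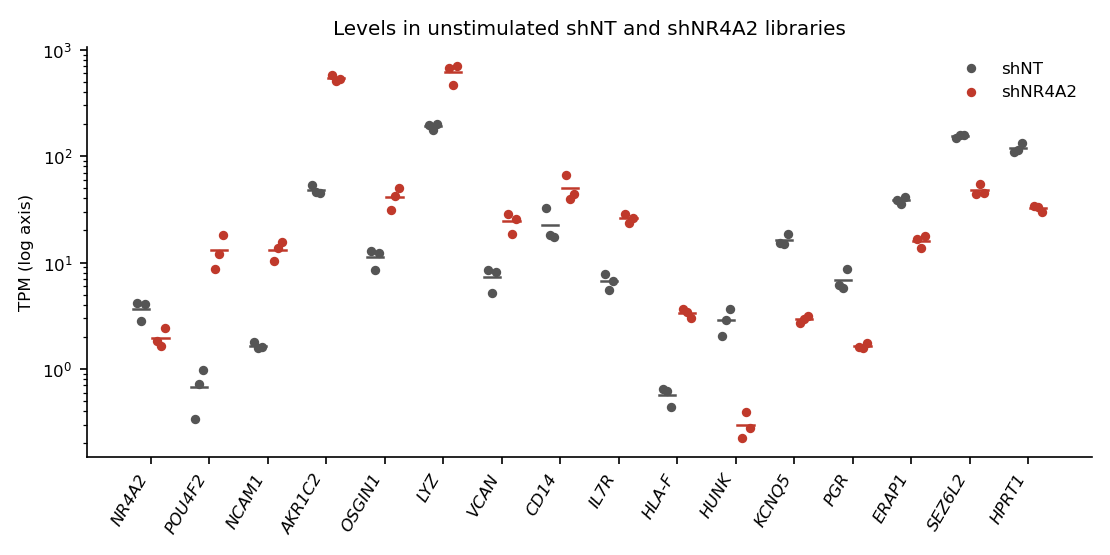
TPM on a log axis of 16 named genes in each of the 3 unstimulated shNT libraries (grey) and 3 unstimulated shNR4A2 libraries (red), with a short line at each mean. The groups do not overlap in any gene shown, and the gap is widest for POU4F2, AKR1C2 and HUNK.

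Of 32 tested genes on a list of monocyte and granule genes, 10 were called higher, none lower and 22 were not called (median log2 fold change 0.39), against 6.45% of all genes tested called in either direction. Lysozyme (LYZ, chr12:69348341-69354234) had 198, 177 and 202 TPM in shNT cells and 675, 462 and 709 TPM in shNR4A2 cells, higher by 1.68 on the log2 scale (standard error 0.139, adjusted p = 6.22e-05). The proteoglycan VCAN rose from 7.28 ± 1.81 to 24.3 ± 5.34 TPM, the inhibitory receptor LILRB1 from 1.39 ± 0.262 to 5.999 ± 0.251 TPM and the receptor of M-CSF, CSF1R, from 85.0 ± 14.3 to 145 ± 15.1 TPM (SD, n = 3). CD14, the co-receptor of LPS, had 32.2, 18.2 and 17.4 TPM against 66.7, 39.9 and 44.0 TPM, and its call (log2 fold change 1.15, adjusted p = 0.0188) was lost without shNT replicate 2 or 3 or shNR4A2 replicate 1 (adjusted p up to 0.0694). With the replicate block the adjusted p of CD14 was 5.06e-06. CLEC12A, CD36, LILRB4, FCER1G and ITGAX completed the 10, with the call of FCER1G lost in 1 and that of ITGAX in 3 leave-outs.

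The proteases of primary granules, the most abundant members of that list, did not follow. The level of ELANE was 4154 ± 530 TPM in shNT and 3169 ± 749 TPM in shNR4A2 cells (SD, n = 3), with a log2 fold change of -0.39 (adjusted p = 0.201), and those of CTSG (-0.77, adjusted p = 0.0844), PRTN3 (-0.68, adjusted p = 0.102) and AZU1 (-0.35, adjusted p = 0.266) were not called by edgeR either. With the replicate block these 4 passed the limit as lower, among 6 members lower and 18 higher, where the block called 23.6% of all genes tested. The summed TPM of the list was 13850, 18120 and 16930 in shNT and 11210, 15640 and 12330 in shNR4A2 libraries, so that the sum followed the granule proteases and the groups overlapped. Within every pair of the same replicate number the sum was lower in shNR4A2 cells. MPO was low in both groups (4.93 ± 0.979 and 4.03 ± 1.67 TPM, SD, n = 3), as was FCN1, with 1 and 6 counts over the 3 libraries.

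Among the transcription factors of the monocyte lineage 4 of 22 tested rose and 1 fell (median log2 fold change 0.11), a share of 22.7% beside 6.45% of all genes tested, and with the replicate block 9 rose and 5 fell, where it called 23.6% of all genes. MAF rose from 0.930 ± 0.155 to 3.58 ± 1.28 TPM, KLF4, which drives monocyte differentiation, from 17.2 ± 2.08 to 31.4 ± 6.27 TPM and the repressor BCL6 from 6.10 ± 0.775 to 11.2 ± 1.48 TPM (SD, n = 3). The granulocytic repressor GFI1 was called at -0.40 (adjusted p = 0.0415), a call lost with 4 of the libraries left out, up to an adjusted p of 0.167. The factors that define the lineage were not called without the block, with SPI1 (PU.1) at 571 ± 36.8 and 657 ± 61.6 TPM (SD, n = 3; adjusted p = 0.326, and 0.0170 with the replicate block), CEBPA at adjusted p = 0.461 (0.00847 with the block) and IRF8 at adjusted p = 0.441.

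Of 32 tested genes of Toll-like receptors and their signalling, 7 rose and 1 fell (median log2 fold change 0.18; all genes tested 6.45%), and 14 rose and 4 fell with the replicate block (all genes tested 23.6%). TLR8, a sensor of single-stranded RNA, had 0.686, 0.957 and 0.481 TPM in shNT and 3.22, 2.15 and 1.55 TPM in shNR4A2 cells. TLR6, which pairs with TLR2 to bind lipopeptides, had 11.6, 7.45 and 10.4 TPM against 19.7, 13.6 and 17.7 TPM. Groups did not overlap in either gene, but without the block the calls were weak, with adjusted p of 0.0156 for TLR8 and 0.0174 for TLR6 by edgeR. These rose to as much as 0.0664 and 0.0631 with 1 library left out. With the replicate block the adjusted p was 0.000872 for TLR8 and 3.39e-05 for TLR6. TLR1, TLR7, TLR10 and LY96 (MD-2, the partner of TLR4) were called at log2 fold changes from 0.87 to 1.85, and each call was lost with at least 3 of the 6 libraries left out. CD14, described above, was the 7th. The kinase-like inhibitor IRAK3 was the member that fell (log2 fold change -0.41), and its call was lost with 4 of the 6 left out.

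Genes of antigen presentation were looked at by class. Of 22 class I genes tested, 5 rose and 1 fell (median log2 fold change 0.32), with 14 higher and 2 lower under the replicate block, where 6.45% of all genes tested were called by the fit without the block and 23.6% with it. Of 16 class II genes tested, 5 rose and none fell (median 0.31), with 7 higher and none lower under the block, beside the same shares of 6.45% and 23.6%. The study singled out genes of both classes from these same libraries, so these counts are not independent evidence of a direction. HLA-F, a non-classical class I molecule (chr6:29722775-29738528), had 0.647, 0.623 and 0.438 TPM in shNT and 3.69, 3.42 and 3.03 TPM in shNR4A2 cells, the largest rise among the 22 (log2 fold change 2.56, standard error 0.261, adjusted p = 0.000258). HLA-B, a classical molecule of far higher level, had 457, 408 and 367 TPM against 732, 705 and 561 TPM (log2 fold change 0.70, adjusted p = 0.00936). ERAP1, the peptidase that trims peptides for class I, moved the other way, with 38.7, 35.8 and 40.9 TPM in shNT and 16.7, 13.8 and 17.8 TPM in shNR4A2 cells (log2 fold change -1.25, standard error 0.109, adjusted p = 9.51e-05). HLA-C, TAP2 and PSMB9 were the other 3 that rose, at log2 fold changes from 0.41 to 0.58, and their calls were lost in 2, 5 and 2 leave-outs, up to adjusted p of 0.0786, 0.159 and 0.0700.

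In class II, the DR and DP chains were those called. HLA-DRB1 had 193, 177 and 162 TPM in shNT and 320, 316 and 255 TPM in shNR4A2 cells, and HLA-DRB5 rose from 51.0 ± 5.59 to 88.4 ± 10.0 TPM (SD, n = 3). Only 2.42% of the stretches of 75 bases of HLA-DRB1 also occur in HLA-DRB5. HLA-DRA, HLA-DPA1 and HLA-DPB1 were called at log2 fold changes of 1.00, 1.41 and 1.54 from levels of 10.1, 0.669 and 0.562 TPM in shNT cells, and each call was lost with 3 or 4 of the libraries left out, up to adjusted p of 0.0754, 0.120 and 0.141. The invariant chain CD74 (adjusted p = 0.183, and 0.00559 with the replicate block), HLA-DQB1 (8.74 ± 1.47 and 8.67 ± 1.41 TPM, SD, n = 3) and the class II transactivator CIITA, at 0.331 ± 0.129 and 0.447 ± 0.109 TPM (SD, n = 3; adjusted p = 0.489), were not called.

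Of interferon, cytokine and proliferation genes 2.86%, 8.33% and 2.94% were called, beside 6.45% of all genes tested. Of 35 interferon-stimulated genes 1 rose, IFI35, with a call lost in 4 of the 6 leave-outs (median log2 fold change 0.14), and the replicate block, which called 23.6% of all genes tested, called 4 higher and 3 lower. Of 24 cytokines and chemokines tested, the interleukin 1 receptor antagonist IL1RN (23.3 ± 2.76 to 40.0 ± 1.34 TPM, SD, n = 3) and IL16 rose and none fell, the call of IL16 being lost in 4 leave-outs. With the block 3 were higher and 3 lower. Of 34 proliferation genes, cyclin D1 (CCND1) alone was called without the block, with 10.1, 9.01 and 10.1 TPM in shNT and 27.3, 21.0 and 25.8 TPM in shNR4A2 cells. The median of that list was -0.004, and the block called 5 of its genes higher and 6 lower. Of 24 glycolysis genes, PFKFB3, HK3 and HK1 rose and none fell (12.5%), each lost with 1 or more libraries left out. The median of the glycolysis list was -0.04, and the block called 7 of its genes higher and 5 lower. Of 26 genes of cholesterol synthesis and uptake, 2 rose and 3 fell (19.2%, beside 6.45% of all genes tested). HMGCS1 (110 ± 14.3 to 55.7 ± 1.35 TPM, SD, n = 3), SC5D and IDI1 fell, while MSMO1 and INSIG1 rose. The calls of IDI1, INSIG1 and MSMO1 were lost in 3, 4 and 5 leave-outs. The median of the cholesterol list was 0.11, and the block called 6 of its genes higher and 4 lower.

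Early response genes, the family to which NR4A2 itself belongs by its induction, moved in both directions. Of 28 tested, 5 rose and 3 fell (28.6%, beside 6.45% of all genes tested), with 12 and 4 under the replicate block (beside 23.6% of all genes). The antiproliferative gene BTG2 had 37.3, 35.5 and 33.5 TPM in shNT and 61.8, 72.0 and 68.2 TPM in shNR4A2 cells, and FOS, a subunit of AP-1, had 30.9, 29.8 and 25.6 TPM against 56.4, 54.1 and 51.9 TPM. The oncogene MYC fell from 381, 391 and 450 TPM to 254, 265 and 272 TPM (log2 fold change -0.62, standard error 0.0897, adjusted p = 0.00207). All 3 calls held with any 1 library left out. The phosphatases DUSP5 and DUSP4 and the AP-1 subunit FOSL1 also rose, and IER5 fell beside NR4A2, with the calls of DUSP4, FOSL1 and IER5 lost in 4, 2 and 4 leave-outs.

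Adhesion molecules and regulators of vessel growth held genes of both directions. Of 20 integrins tested, ITGA6, ITGAL, ITGB2 and ITGAX rose and ITGA4 fell (25.0%, beside 6.45% of all genes tested). ITGAL and ITGB2, the chains of LFA-1, had 35.2 ± 0.424 and 423 ± 30.6 TPM in shNT and 69.2 ± 8.03 and 650 ± 67.4 TPM in shNR4A2 cells (SD, n = 3). Of 28 angiogenesis regulators, 7 rose and 1 fell (28.6%, beside the same 6.45%). KDR, the VEGF receptor, had 1.99, 0.931 and 2.49 TPM against 0.418, 0.183 and 0.499 TPM, while NRP1, its co-receptor, had 9.98, 5.76 and 9.47 TPM against 25.7, 11.6 and 22.3 TPM. PDGFA, a growth factor, and DLL1, a Notch ligand, rose from 5.12 ± 0.626 to 11.7 ± 1.87 TPM and from 26.8 ± 3.72 to 55.6 ± 6.83 TPM (SD, n = 3). Of 13 Eph receptors and ephrins tested, 1 rose and 2 fell (23.1%, beside the same 6.45%). With the replicate block, which called 23.6% of all genes tested, 3 were higher and 3 lower. The Eph receptor EPHA7 fell from 3.22 ± 0.573 to 1.46 ± 0.313 TPM (SD, n = 3). EPHB2 rose (log2 fold change 1.81) and EPHB4 fell (-0.72), with calls lost in 4 and 6 leave-outs.

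Of 36 potassium channel genes tested, 4 rose and 3 fell (19.4%, beside 6.45% of all genes tested). KCNQ5, a voltage-gated channel (chr6:72621792-73198851), had 15.2, 14.9 and 18.5 TPM in shNT and 2.72, 2.95 and 3.15 TPM in shNR4A2 cells (log2 fold change -2.46, standard error 0.130, adjusted p = 2.71e-06). The channels KCNK5 and KCNK13 moved in opposite directions, from 61.7 ± 4.59 to 29.8 ± 4.57 TPM and from 2.92 ± 0.242 to 8.93 ± 3.04 TPM (SD, n = 3). Of 55 RhoGEF, RhoGAP and DOCK genes, regulators of small GTPases, 4 rose and 3 fell (12.7%), and ARHGEF40 (log2 fold change -1.34, adjusted p = 0.000850) was the only one past 2-fold. Of 34 matrix genes 3 were called, VIM, VCAN and COL15A1, all higher, a share of 8.82% beside 6.45% of all genes tested, and the call of COL15A1 was lost without shNT replicate 3 (adjusted p = 0.0608). With the replicate block, which called 23.6% of all genes tested, 11 matrix genes were higher and 4 lower. Of 6 GIMAP genes, GTPases of lymphocytes, GIMAP4 and GIMAP6 rose (33.3%, beside 6.45% of all genes tested), the latter with a call lost in 5 leave-outs. GIMAP4 had 11 counts over the shNT and 95 over the shNR4A2 libraries, so that it passed the filter on low counts only through the shNR4A2 libraries. Others among the 10 largest rises were GNG11, a subunit of G proteins (4 counts in the shNT and 49 in the shNR4A2 libraries), INHBA-AS1 and C22orf42, the last 2 lost with some libraries left out (adjusted p up to 0.0726 and 0.0588). DESeq2 gave no adjusted p for these 3.

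**Figure D3:**
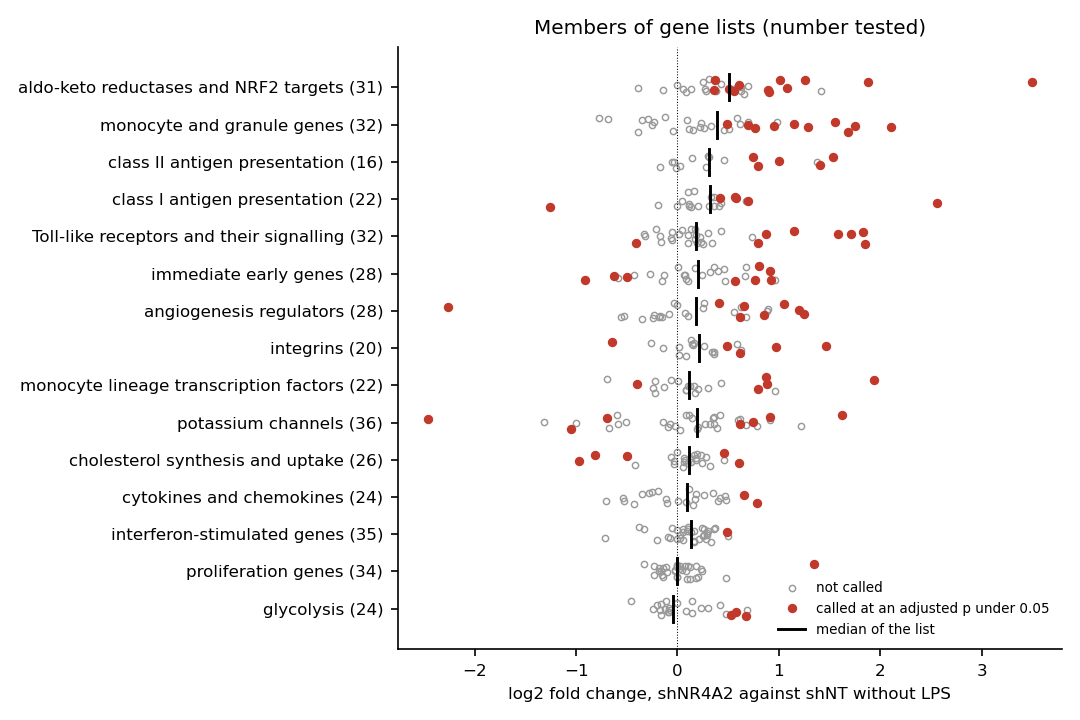
Log2 fold change of each tested member of 15 gene lists (horizontal axis), shNR4A2 against shNT cells without LPS, with called members in red, others as open grey circles and the median of each list as a black bar. The list of aldo-keto reductases and NRF2 targets lies farthest to the right, with a median of 0.51, and the proliferation list lies near 0.

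The falls were led by genes of low level. HUNK, a serine/threonine kinase (chr21:31873315-32044633), had 2.05, 2.86 and 3.67 TPM in shNT and 0.223, 0.391 and 0.278 TPM in shNR4A2 cells. IGSF10, a secreted immunoglobulin-domain protein, had 2.43, 2.52 and 3.13 TPM against 0.420, 0.504 and 0.351 TPM. The rule for the largest changes took only genes whose groups were apart. For HUNK and IGSF10 no leave-out raised the adjusted p above 0.00049. PGR, the progesterone receptor and the nuclear receptor with the largest fall among 30 tested, had 6.12, 5.73 and 8.65 TPM against 1.62, 1.58 and 1.76 TPM. The other large falls by rank were those of AL365199.1, EXOC3L2, FGFBP2, the homeobox gene MEOX2 and FAM163A, at log2 fold changes from -2.54 to -2.08, and that of FGFBP2 was lost in 3 leave-outs (adjusted p up to 0.0766).

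Among the genes called at 2-fold, the largest falls in TPM were those of CKAP4, SEZ6L2, HPRT1, ALX1 and LAMTOR5. HPRT1, which salvages purines and serves as a reference gene of quantitative PCR (chrX:134460153-134520513), had 108, 114 and 132 TPM in shNT and 34.0, 33.5 and 29.7 TPM in shNR4A2 cells, a change of -1.86 on the log2 scale (standard error 0.120, adjusted p = 9.83e-06). SEZ6L2, a membrane protein known from neurons, had 149, 159 and 157 TPM against 43.8, 54.6 and 45.1 TPM. CKAP4, a protein of the endoplasmic reticulum, fell from 393 ± 11.6 to 178 ± 39.4 TPM (SD, n = 3). The calls of all 3 held with any 1 library left out. On the other side, and again among the genes called at 2-fold, AKR1C2, LYZ, HMOX1, AP1S2, an adaptor of vesicle coats, and VIM, the intermediate filament vimentin, rose by the most TPM. VIM had 107, 109 and 104 TPM against 235, 232 and 267 TPM.

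Markers of other cell types mostly did not pass the filter on low counts, and some that did, such as NKG7 and PECAM1, were not low. Of 18 markers of T and NK cells only 5 passed the filter, and CD8B and KLRD1 had no count in any of the 6 libraries, while CD3D, CD3E and CD3G had at most 4 counts over the 3 libraries of a group. The summed TPM of that list was 72.6, 64.9 and 69.8 in shNT and 76.7, 82.8 and 87.7 in shNR4A2 libraries, most of it NKG7 at a mean of 50.3 TPM. IL7R, the receptor of interleukin 7, rose within it from 7.77, 5.50 and 6.68 TPM to 28.3, 23.3 and 26.2 TPM. None of 4 B cell and 3 erythroid or megakaryocytic markers tested was called, where 6.45% of all genes tested were and lists this short would hold few calls at that share. PAX5 stood at 6.31 ± 1.26 and 4.34 ± 1.01 TPM (SD, n = 3; adjusted p = 0.132, and 0.00191 with the replicate block). PECAM1, an adhesion molecule of endothelium and of monocytes, rose from 174 ± 27.9 to 269 ± 19.6 TPM (SD, n = 3).

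Called genes were also looked for side by side on the chromosomes. Runs of at least 3 tested neighbours called in the same direction numbered 11, of which 9 rose and 2 fell. In 3 of them, those of PRLR, of the AKR1C genes and of ITGB2, every member kept its call with any 1 library left out, and the other 8 each held 1 or more members that did not. The runs that rose held the complement genes C1QA and C1QC with EPHB2 on chromosome 1 and the receptors TLR10, TLR1 and TLR6 on chromosome 4. They also held PRLR, SPEF2 and IL7R on chromosome 5, the AKR1C genes on chromosome 10 and HOXB7, HOXB13 and CALCOCO2 on chromosome 17. LILRA2, LILRA1, LILRB1 and LILRB4 on chromosome 19 and TLR7, TLR8 and TMSB4X on chromosome X rose as well. The other rises were IGSF9, SLAMF9 and LINC01133 on chromosome 1 and PTTG1IP with ITGB2 and ITGB2-AS1 on chromosome 21, and the falls HIVEP2, AIG1 and AL136116.3 on chromosome 6 and AC015712.2, LRRK1 and CHSY1 on chromosome 15. C1QA, a subunit of the first complement component, had 0.552, 0.982 and 1.35 TPM in shNT and 4.72, 5.39 and 3.88 TPM in shNR4A2 cells. PRLR, the prolactin receptor, had 0.844, 0.889 and 0.740 TPM against 4.13, 3.42 and 2.71 TPM. Both genes were apart in all libraries. TLR1 and TLR6, as well as LILRA1 and LILRA2, overlap in the annotation, and ITGB2 lies in a run with its antisense partner ITGB2-AS1, so that reads in the shared positions may not be separable. Of the stretches of 75 bases in the longest coding transcript, 5.37% of those of TLR1 also occur in TLR6, 2.57% of those of TLR6 in TLR1 and 0.0% of those of LILRA1 in LILRA2. By chromosome, the share of tested genes called ran from 3.87% on chromosome 14 to 9.16% on chromosome 4, and the median log2 fold change from -0.11 on chromosome 13 to 0.05 on chromosome 20.

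The monomer element of NR4A receptors, NBRE, with the letters AAAGGTCA, was looked for on both strands of the RefSeq promoter windows, which hold 250 bases before and 50 after each start. It occurs in 1.22% of all 35116 windows. Of 724 called genes with a window, 3 held it: IQCN, which rose (log2 fold change 0.98), and ILDR2 (-0.92) and PLAGL1 (-0.43), which fell. The windows are shown because they are the places where a called gene carries the element near its start, in each case on the strand opposite to the gene, so that the capitals read TGACCTTT. They come from GRCh38.p14 and are read in the direction of the gene.
IQCN, chr19:18274546-18274605, minus strand: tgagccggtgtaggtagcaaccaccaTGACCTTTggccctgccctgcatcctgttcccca
ILDR2, chr1:166975637-166975696, minus strand: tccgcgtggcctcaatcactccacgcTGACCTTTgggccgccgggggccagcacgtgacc
PLAGL1, chr6:144055277-144055336, minus strand: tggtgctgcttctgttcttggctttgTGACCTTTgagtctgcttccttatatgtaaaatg
The matches begin 127, 130 and 48 bases before the start. A match of letters does not show binding, and the windows do not reach distant enhancers.

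The same contrast in cells with LPS, made on other libraries of the same lines, gave 1085 called genes of 15590 tested (6.96%), and 553, 519, 342 and 409 without shNR4A2 replicate 1 or shNT replicates 1, 2 and 3 of the LPS libraries. Of the 244 genes that rose at least 2-fold without LPS, 223 were tested with LPS, 221 had the same sign and 159 were called the same way. Of the 100 that fell, 96 were tested, 95 had the same sign and 70 were called the same way. None was called the opposite way. POU4F2 had log2 fold changes of 4.26 without and 3.92 with LPS, AKR1C2 of 3.49 and 3.65, LYZ of 1.68 and 1.76, HPRT1 of -1.86 and -2.08 and HUNK of -3.27 and -2.94.

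Some genes named here differed in size or sign between the contrasts. MEOX2 had a log2 fold change of -2.13 without LPS and of -0.27 with LPS (adjusted p = 0.707), KLF4 of 0.87 and -0.05 (adjusted p = 0.929), and PDGFA of 1.19 and 0.28 (adjusted p = 0.494). MYC was at -0.62 without LPS and at 0.52 with LPS (adjusted p = 0.151), where it stood at 52.3 ± 6.33 TPM in shNT and 71.6 ± 17.5 TPM in shNR4A2 cells (SD, n = 3). In the test of the difference itself, the interaction of line and LPS, edgeR called 0 of 16674 genes, with 365 at an unadjusted p under 0.05, and the adjusted p was 0.946 for MYC and 1.00 for the other 3. DESeq2 called 2 genes, the replicate block 8 and the fit without shNR4A2 replicate 2 with LPS 8.

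**Figure D4:**
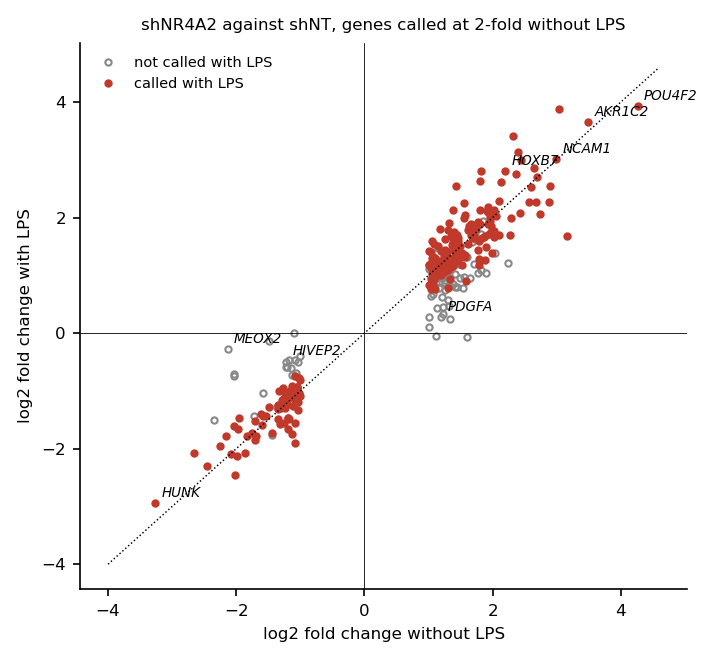
Log2 fold change of shNR4A2 against shNT cells with LPS (vertical axis) against that without LPS (horizontal axis) for the genes called at 2-fold without LPS and tested with LPS, with those also called with LPS in red and a dotted line where both are equal. Of the 223 that rose and 96 that fell, 221 and 95 keep their sign, and MEOX2 and PDGFA lie near 0 with LPS.

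Unstimulated shNR4A2 cells were finally compared directly with unstimulated shNR4A3 cells, a test that shares the shNR4A2 libraries with the comparison above. It called 480 of 15584 genes (3.08%), and 249 and 251 without shNR4A3 replicate 1 or 3. AKR1C2 (log2 fold change 3.68, adjusted p = 4.17e-08), POU4F2 (4.49, adjusted p = 3.06e-05), OSGIN1 (1.71, adjusted p = 0.000192) and HLA-F (2.15, adjusted p = 0.00116) were higher in shNR4A2 than in shNR4A3 cells. HPRT1 (-1.98, adjusted p = 5.67e-06), SEZ6L2 (-1.64, adjusted p = 8.57e-06), KCNQ5 (-1.87, adjusted p = 3.06e-05), ERAP1 (-1.24, adjusted p = 0.000168) and MYC (-0.54, adjusted p = 0.00627) were lower. HPRT1 had 32.4 ± 2.36 TPM in shNR4A2 and 124 ± 8.38 TPM in shNR4A3 cells (SD, n = 3). For other genes edgeR without the replicate block did not tell the 2 lines apart. NR4A2 itself was among them, at -0.63 (adjusted p = 0.223). The same held of HUNK at -0.20 (adjusted p = 0.891), PGR at -0.10 (adjusted p = 0.886), LYZ at -0.58 (adjusted p = 0.0978), VCAN at -0.20 (adjusted p = 0.624) and NCAM1 at 0.45 (adjusted p = 0.284). Blocked values of these genes are not given here, although the block called 1800 genes in this contrast. Within every pair of the same replicate number, NR4A2 and LYZ were lower and NCAM1 higher in shNR4A2 cells. HUNK, PGR and VCAN went both ways. NR4A2 had 2.51, 2.97 and 3.31 TPM in shNR4A3 cells, above all shNR4A2 libraries. CKAP4 was higher in shNR4A2 than in shNR4A3 cells (log2 fold change 2.08, adjusted p = 5.21e-05), although it was lower in each of them than in shNT cells, at -1.14 and -3.22.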

How the data were processed

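Each library came as a table that the authors deposited, with whole counts of reads for every Ensembl gene and no normalization. Per the submitters' notes the tools were Trimmomatic 0.36, STAR 2.5.2b and featureCounts (Subread 1.5.2) on GRCh38; strand setting and annotation release are not given in the sources used here. Of 57500 genes, 56898 took a symbol from GENCODE 29. TPM divided counts by the deposited lengths. Each comparison was fitted on its own libraries with edgeR 4.0.16 in R 4.3.3 (filterByExpr, TMM, quasi-likelihood F test), with p-values adjusted by Benjamini and Hochberg over all genes tested. The study used DESeq2; version 1.42.0 was an alternative, beside RLE scaling, no filter, the replicate block, all 18 libraries in 1 fit, glmTreat, a 1.4-fold limit and each library left out. The fits were also run on simulated data, from which no result is given here. Figure captions of the study state 3 independent experiments, but no source ties a replicate number to one. Replicate numbers were taken to pair the libraries because the residuals of libraries sharing a number correlated at 0.285, 0.287 and 0.293, above the limit of 0.1. Named genes were NR4A1 to NR4A3, the 10 largest rises and falls among non-overlapping 2-fold calls, the 5 largest TPM differences each way among 2-fold calls, up to 4 called members per list, and neighbour runs; other list members and genes named beside them were chosen after their values were seen. The members and lists were chosen with earlier results of these data known. Only 68.3% of tested genes matched a promoter window, so shares of motifs between called and tested genes are void and not compared. Hairpin sequences were not analysed here, and single members of some lists are not reported here.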

Additional observations from a re-analysis of the deposited data

How the results depend on the processing

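Without LPS, the limit of at least 2-fold gave 344 genes, against 886 at 1.4-fold and 38 by a test against the 2-fold limit itself (glmTreat). With each library left out it gave from 242 to 366. The 1019 genes called at the adjusted p alone became 1611 without the filter on low counts and 3733 with the replicate block, and from 517 to 1128 with a library left out. With LPS the 1085 genes became 1843 without the filter and 4385 with the replicate block, and from 342 to 1477 with a library left out, and the 388 at 2-fold became 622 with the block and from 191 to 491. The interaction went from 0 to 2 by DESeq2, to 29 (17 at 2-fold) without the filter and to 8 (5 at 2-fold) with the block, and from 0 to 8 (from 0 to 7 at 2-fold) with a library left out. Against shNR4A3 cells the 480 genes became 838 without the filter, 1800 with the block and from 249 to 470 with a library left out. Beside them, the 1108 genes of shNR4A3 against shNT cells became 2267 with the block and from 649 to 975. The causes were not tested, other than that the block and the leave-outs change the spread by construction. With RLE scaling all 10 counts stayed within 1.5 times the reported ones. Of the named genes called without LPS, none changed sign in any of these fits, while NR4A1 and OR2W3, which were not called, did so with a library left out (log2 fold changes from -0.29 to 0.03 and from -0.27 to 0.34). DESeq2 ended the calls of HMOX1, HLA-DPB1, TLR10, EPHB4 and TLR7 and gave no adjusted p for GNG11, INHBA-AS1 and C22orf42, and the fit of all 18 libraries calls that included those of HMOX1, RARA, CD14, IL16, INSIG1, HK3, TLR1 and CHSY1. Depth limits the genes at a few counts per library most, since 1 read moves their TPM by a large share.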

Other observations

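The genes of this paragraph were chosen after their values were seen. Among abundant transcripts, SRGN, the core protein of serglycin in secretory granules, fell from 10600 ± 74.5 to 6832 ± 221 TPM (SD, n = 3; log2 fold change -0.63, adjusted p = 0.00158 by edgeR), and the translation elongation factor EEF1A1 fell from 10120 ± 784 to 6621 ± 895 TPM (SD, n = 3; log2 fold change -0.61, adjusted p = 0.00837). The thymosin TMSB4X rose from 3843 ± 265 to 5380 ± 391 TPM (SD, n = 3), with a call lost without shNT replicate 2 or 3 or shNR4A2 replicate 1 (adjusted p up to 0.0794). BHLHE22, a neuronal basic helix-loop-helix factor, rose from a mean of 17.9 to 116 TPM, and the desmosomal cadherin DSG2 fell from 63.8 to 21.1 TPM.

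Of 15 genes in common use as references of quantitative PCR, HPRT1 was the only one called, a share of 6.67% beside 6.45% of all genes tested. Among the others, edgeR gave log2 fold changes of -0.09 for GAPDH (adjusted p = 0.665), 0.04 for PPIA (adjusted p = 0.862) and 0.12 for TBP (adjusted p = 0.570), and the median over the 15 was -0.04. With the replicate block, which called 23.6% of all genes tested, 1 was higher and 4 were lower. In cells with LPS HPRT1 was again the only one called.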
